A study of Anas platyrhynchos x Cairina moschata with 205 samples.

Results

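ALB, HNF4 and CYP2C are genes that mark the hepatocyte, the cell that makes up most of the liver. They were taken by their symbols in the deposited tables, and are 3 of the 86 target genes measured. Livers of mule ducks, the sterile hybrid of the Muscovy drake and the common duck, were collected at 13 sampling points in 2 trials. TM (thermally manipulated) eggs were warmed by 1 °C from E13, embryonic day 13, in the second trial for part of each day until E27, and control eggs stayed at the standard temperature. The first trial gave 8 TM and 8 control livers at each of 7 times on E13, the first at 30 min and the last at 7 h of warming. The second gave 8 TM and 8 control livers at E12, E20, E24, E28 and E30 (hatch), and 8 TM and 5 control livers at E16. The livers of E16, E20 and E24 are labelled with a time of 1 h, by the study's methods 1 h after the daily rise in temperature. All embryos came from a single commercial genotype (H85), so the groups share their strain. The labels describe the E12 livers, too, as taken after a rise in temperature, but by the study's methods the warming began on E13, so E12 is read here as a point before treatment. The E28 livers are likewise labelled with a time of 1 h, though the warming lasted until E27, and E28 is read as after it. Sampling at E12 and E28 is not named in the methods. At E28, after the warming, all viable eggs were moved to a shared hatcher, and until then each group of the second trial sat in an incubator of its own. In the first trial the livers of 1, 3 and 5 h came from one pair of incubators and those of the other times from another pair. Incubator and treatment therefore cannot be told apart, and p-values measure the spread between embryos of an incubator.

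HNF4 stands for hepatocyte nuclear factor 4, a family of nuclear receptors, and in mammals HNF4-alpha binds the promoters of a large share of liver genes and holds the hepatocyte in its differentiated state. ALB encodes albumin, the main protein that hepatocytes secrete into plasma, a carrier of fatty acids and of thyroid hormone. CYP2C is a symbol of a cytochrome P450 subfamily, enzymes of the endoplasmic reticulum that oxidise drugs, steroids and fatty acids. Genes of this kind mark successive steps of liver maturation, since albumin is made early in embryonic life and many P450 enzymes appear around birth or hatching. The assay with the symbol CYP2C carries the full name cytochrome P450 family 2 subfamily E member 1 in the deposited annotation, so which P450 gene it reads is not settled, and it is called CYP2C here only as its symbol. HNF4 is listed without an isoform letter.

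Expression was measured by Fluidigm real-time PCR, in which Ct is the amplification cycle at which a product is detected, and 1 cycle fewer stands for about 2 times as much cDNA. The values are log2 relative expression: the gene's Ct set against 4 reference genes of the same liver, with 0 near the gene's average over its trial. Each trial was scaled by its own reference genes, so levels are not compared between trials. ALB had a ratio in 200 of 205 livers, HNF4 in 198 and CYP2C in 199. In 202 of the 204 livers with Ct values, ALB had the lowest Ct of all 92 assays, between 6.09 and 11.8, whereas the lowest Ct of any other assay in any liver was 9.56. Median Ct was 7.88 for ALB, 19.3 for HNF4 and 18.4 for CYP2C, a distance that also holds the assays' own efficiencies. Every group therefore carried the defining hepatocyte product in abundance. Of the 18 missing ratios, 13 had a Ct in the second deposited table. CYP2C of TM replicate 3 at 2 h came out below the livers of its group with a ratio, and each of the others above. The deposited ratios thus leave out extreme livers, mostly high ones, and can understate the spread of those groups. Calls between TM and control livers that change when these values are added are given with them. With them, the uncalled differences at E12 (ALB, 0.15) and at 7 h and E30 (HNF4, -0.05 and -0.15) changed sign.

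A pair of livers stood apart, and both entered the deposited ratios. In control replicate 7 of E16, ALB was detected at 23.7 cycles and HNF4 and CYP2C were not detected. In TM replicate 1 of E20, ALB was detected at 22.5 cycles and HNF4 and CYP2C again gave no Ct. In both, luciferase, an RNA added to each sample, was the sole reference gene with a Ct. The log2 ratios of ALB, set against luciferase alone, were -12.56 and -12.98. Each result of ALB at E16 and E20 is given with and without these 2 livers, which carry no value of HNF4 or CYP2C.

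The largest steps of CYP2C and, without the 2 livers, of ALB between consecutive stages were at hatch, where CYP2C was higher and ALB lower in both groups. CYP2C at E30 had a lowest, median and highest log2 ratio of 0.24, 2.33 and 3.46 in TM livers, against -1.63, -0.51 and 1.18 at E28. In control livers the values were 0.25, 2.52 and 3.26 at E30, against -2.70, 0.12 and 1.39 at E28. The 2 stages overlapped in both groups, since 3 TM and 2 control livers of E30 stayed between 0.24 and 0.54. Mean CYP2C was 1.82 ± 1.24 at E30 and -0.55 ± 0.92 at E28 in TM livers (SD, n = 8 each), a rise of 2.37 (95% interval 1.41 to 3.34), or 5.18-fold, with an adjusted p of 2.54e-05 in limma, a linear model fitted over all genes of the trial with Benjamini-Hochberg adjustment. In control livers the means were 2.07 ± 1.16 and -0.07 ± 1.33 (SD, n = 8 each), a rise of 2.14 (1.18 to 3.10, limma adjusted p = 0.000162). Over the panel, 32.9% of the genes tested changed in TM livers and 27.1% in control livers. The rises of TM and control livers differed by 0.23 (95% interval -1.13 to 1.60, limma adjusted p = 0.984), a comparison added after the steps were seen. Mean Ct of CYP2C was 15.0 at E30 against 17.8 at E28 in TM livers, and 14.5 against 17.0 in control livers.

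ALB was lower at hatch in both groups. Its lowest, median and highest log2 ratios at E30 were -2.28, -1.49 and 0.00 in TM livers, against -0.38, 0.33 and 0.66 at E28. In control livers they were -3.09, -0.80 and 0.11 at E30, against -0.10, 0.42 and 1.03 at E28. The stages overlapped only at the edge, through TM replicates 1 and 4 and control replicate 4, the E30 livers with the highest ALB. The difference was -1.51 in TM livers and -1.49 in control livers (n = 8 at each stage and group), with exact two-sided permutation p of 0.000466 and 0.000311. The linear model with all livers put the 95% intervals at -3.46 to 0.44 and -3.44 to 0.46 (limma adjusted p = 0.258 and 0.289), the model's spread of ALB including the 2 livers that stood apart. Without them ALB fell by 1.51 in TM livers (interval -2.14 to -0.87, limma adjusted p = 4.68e-05) and by 1.49 in control livers (-2.12 to -0.85, limma adjusted p = 6.41e-05), or 2.85-fold and 2.80-fold, beside 34.1% and 28.2% of all genes called. Mean Ct of ALB was 8.74 at E30 against 7.71 at E28 in TM livers, and 8.31 against 7.16 in control livers. Over the same step the reference genes had a geometric mean Ct of 19.0 at E30 against 19.5 at E28 in TM livers, and of 18.8 against 19.1 in control livers. STAB1, the one among them that marks endothelial and macrophage-like cells, had a Ct of 18.6 against 18.0 in TM livers and of 18.3 against 17.8 in control livers, and its part in the step was not tested. Against E12, ALB at E30 was lower by 1.40 in TM and by 1.30 in control livers, which passed only without the 2 livers (limma adjusted p = 0.000175 and 0.000366, and 0.220 and 0.283 with them).

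**Figure D1:**
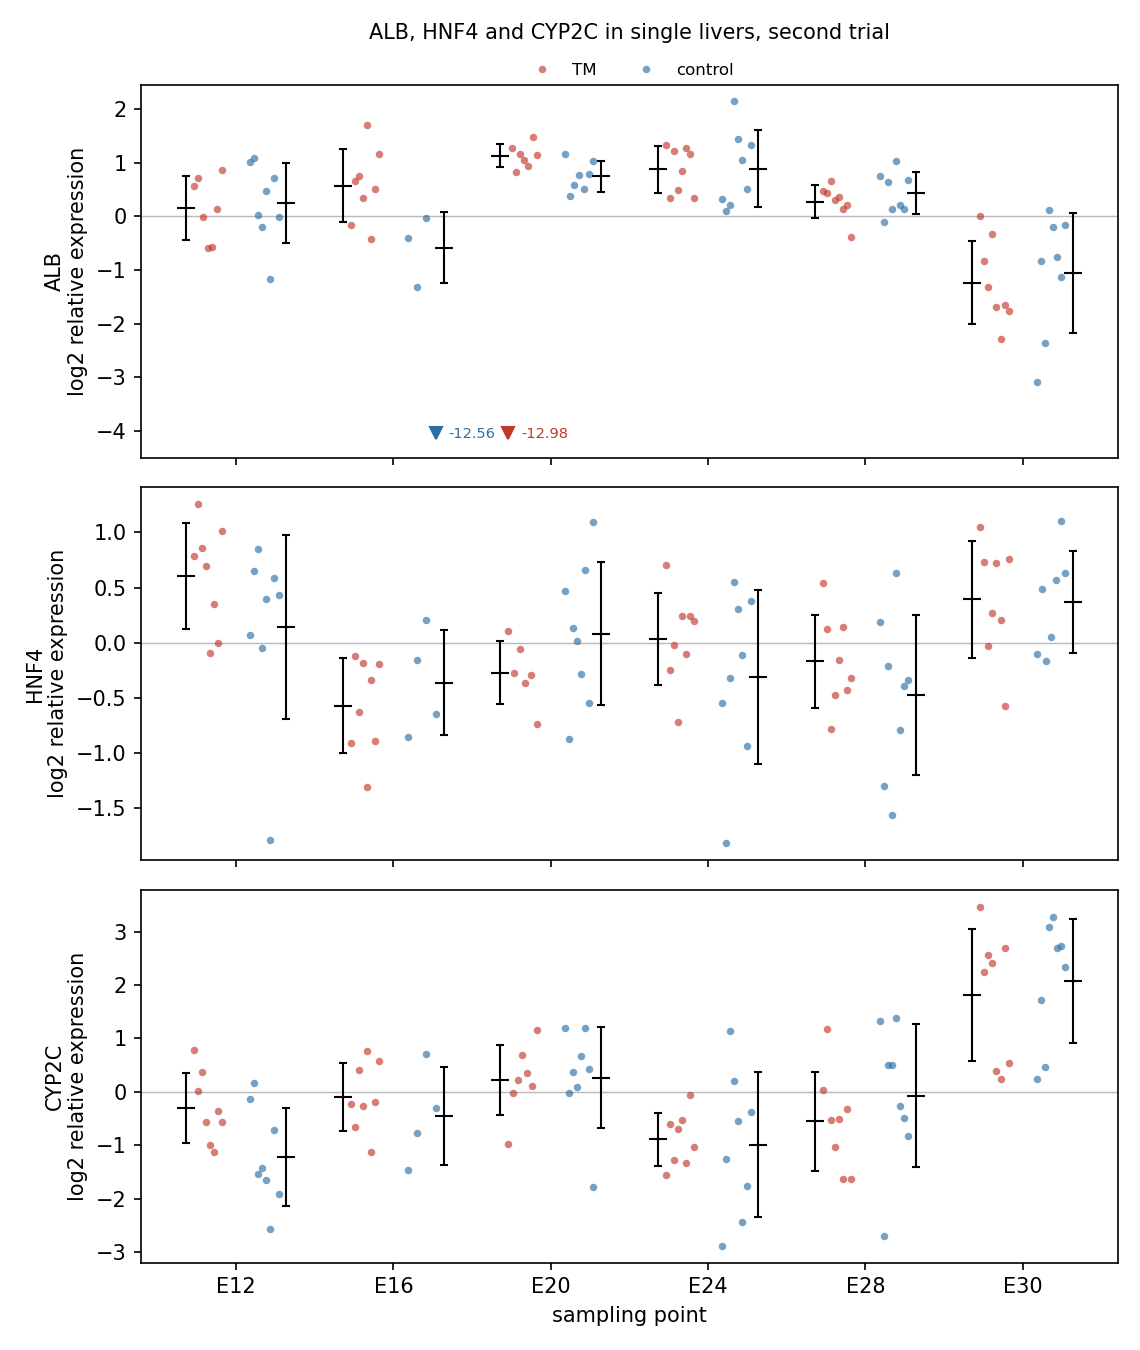
Log2 relative expression (vertical axis) of ALB, HNF4 and CYP2C in single livers of the second trial, by sampling point (horizontal axis); TM livers in red, control livers in blue, black bars mean ± SD of the points drawn on scale. Triangles at the foot of the ALB panel stand for the 2 livers at -12.56 and -12.98, which are left out of the black bars. Among the means drawn, ALB is lowest and CYP2C highest at E30. Mean ALB of control livers at E16 (n = 3) lay 0.47 above that at E30 (exact permutation p = 0.570).

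Since each ratio is set against the same reference genes, the difference of the 2 log2 ratios in a liver does not depend on them. This measure, chosen after the data were seen and given as a description, averaged 3.05 ± 0.79 in TM livers and 3.12 ± 0.48 in control livers at E30 (SD, n = 8 each). At E28 it averaged -0.83 ± 0.77 in TM livers and -0.51 ± 1.08 in control livers. Every E30 liver lay at or above 2.08, and every other liver of the second trial at or below 0.93. The 5 hatchlings with CYP2C at or below 0.54 had ALB between -3.09 and -1.68, lower than in all 11 others. At E12 the measure averaged -0.51 ± 0.49 in TM livers (n = 7) and -1.47 ± 0.39 in control livers (n = 8).

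**Figure D2:**
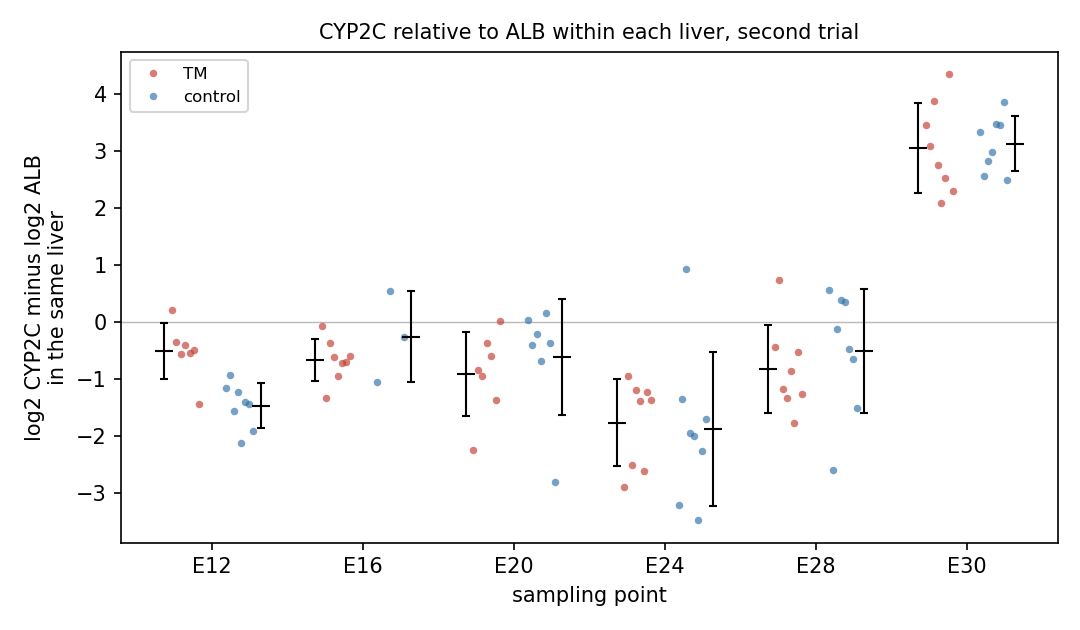
Difference between the log2 relative expression of CYP2C and of ALB in the same liver (vertical axis), by sampling point of the second trial; TM livers in red, control livers in blue, black bars mean ± SD. All 16 livers of E30 lie at or above 2.08, above every earlier liver.

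Before hatch no step of CYP2C between consecutive stages passed. Its mean was -0.89 ± 0.50 in TM livers and -0.99 ± 1.35 in control livers at E24 (SD, n = 8 each), against 0.22 ± 0.66 (n = 7) and 0.27 ± 0.94 (n = 8) at E20. The differences, -1.11 and -1.25, did not pass, beside 4.71% and 5.88% of genes called (limma adjusted p = 0.213 in TM and 0.121 in control livers). From E12 to E30 CYP2C rose by 2.12 in TM livers (1.16 to 3.09, limma adjusted p = 0.000109) and by 3.29 in control livers (2.33 to 4.26, limma adjusted p = 1.33e-08), beside 58.8% and 52.9% of genes called. The control livers of the 2 stages did not overlap, at 0.25 to 3.26 for E30 and -2.56 to 0.16 for E12.

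Without the 2 livers, mean ALB was highest at E20 in TM and at E24 in control livers. In TM livers it averaged 0.16 ± 0.60 at E12 (n = 7), 0.57 ± 0.68 at E16, 1.13 ± 0.21 at E20 without replicate 1 (n = 7), 0.88 ± 0.43 at E24, 0.28 ± 0.31 at E28 and -1.23 ± 0.78 at E30 (SD, n = 8 elsewhere). In control livers it averaged 0.24 ± 0.75 at E12, -0.58 ± 0.66 at E16 without replicate 7 (n = 3), 0.75 ± 0.28 at E20 (n = 7), 0.89 ± 0.72 at E24, 0.44 ± 0.39 at E28 and -1.05 ± 1.12 at E30. With those livers kept, the means were -0.64 ± 4.99 for TM livers of E20 (n = 8) and -3.57 ± 6.01 for control livers of E16 (n = 4). With all livers, TM livers showed no called step of ALB between E12 and E28, where 1.18%, 9.41%, 4.71% and 11.8% of all genes were called at E16, E20, E24 and E28 over the stage before. Control livers showed a step of -3.82 at E16 over E12 and of 4.33 at E20 over E16 (limma adjusted p = 0.0350 and 0.0199, beside 10.6% and 7.06% of genes called). With all deposited Ct values, control replicate 7 included, neither was called. Without control replicate 7 and TM replicate 1 these steps were -0.82 and 1.33 and neither passed (limma adjusted p = 0.211 and 0.0569, beside 8.24% and 3.53% of genes). At E28 over E24 none of the 3 genes passed in control livers, against 15.3% of all genes.

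HNF4 had the narrowest range of levels, its 12 group means of the second trial lying between -0.57 and 0.61. In TM livers it fell at E16 to between -1.31 and -0.12, median -0.49, against -0.09 to 1.26, median 0.74, at E12. The 2 stages did not overlap, and the difference of -1.18 (95% interval -1.76 to -0.60, n = 8 each) had a limma adjusted p of 0.0102. HNF4 was the only 1 of 85 genes that passed at this step in TM livers, 1.18% of the panel. Without luciferase among the reference genes the difference was -0.93 and did not pass (limma adjusted p = 0.133). Luciferase Ct at E12 was 23.1 ± 3.41 in TM livers, with a highest of 28.9, and 22.3 ± 1.23 in control livers. Its part in this step was not tested. In control livers HNF4 at E16 was -0.85, -0.16, 0.20 and -0.65, against -1.79 to 0.85 at E12, a difference of -0.51 that did not pass (limma adjusted p = 0.357). The steps of TM and control livers differed by -0.67 (-1.59 to 0.25, limma adjusted p = 0.506; added after the steps were seen). At E30 HNF4 rose in control livers by 0.84 over E28 (0.24 to 1.44; n = 7 and 8, limma adjusted p = 0.0252), and was 0.56 higher in TM livers without passing (-0.02 to 1.14, limma adjusted p = 0.152). The steps differed by -0.28 (-1.12 to 0.55, limma adjusted p = 0.911). Between E12 and E30 HNF4 differed by -0.21 in TM and 0.23 in control livers, neither past the threshold (limma adjusted p = 0.513 and 0.571).

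When the 6 stages were ordered by mean level in each group, E30 ranked highest for CYP2C in both groups. Of the 30 comparisons between neighbours in these orders, none passed by exact permutation after adjustment over the 30, and 3 had an unadjusted p below 0.05. These were CYP2C at E30 over E20 in TM livers (difference 1.60, exact permutation p = 0.0123) and in control livers (1.80, p = 0.00482), and ALB at E12 over E30 in control livers (1.30, p = 0.0146). Without the 2 livers ALB at E12 over E30 became a pair of neighbours in TM livers (1.40, exact permutation p = 0.00420, adjusted 0.0723). The other neighbours did not differ beyond their spread. Stages apart in these orders were compared only as the steps given above, among them HNF4 at E16 and E12 in TM livers, which did not overlap.

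The question put to each point was whether warming shifted these genes. HNF4 was called at none of the 13 points, at an exact two-sided permutation p below 0.05, the threshold of the study's methods. Over all genes, the share called in the first trial was lowest at 4 h (5.33%) and 2 h (6.49%), higher at 30 min (7.69%), 1 h (10.5%) and 3 h (13.3%), and highest at 5 h (14.3%) and 7 h (14.7%). In the second trial it was 7.41% at E12, 17.3% at E16, 10.0% at E20, 10.0% at E24, 9.76% at E28 and 9.52% at E30. The 3 genes together gave 5 calls in 39 tests, or 12.8%, within the range of these shares. The differences of HNF4, TM minus control, ran from -0.36 to 0.75. With all livers the largest was at 1 h, where HNF4 had a lowest, median and highest value of 0.03, 0.70 and 1.16 in TM livers, against -1.51, -0.15 and 1.22 in control livers. All 8 TM livers were above 0, while the control livers spread on both sides and enclosed them (difference 0.75, exact permutation p = 0.0718). The 95% limma interval at 1 h was -0.04 to 1.54, and the widest was at 2 h, -0.62 to 1.78, an interval that holds a doubling. The difference at 2 h, 0.58 with all livers, was 0.98 without TM replicate 3, a liver with no luciferase Ct and HNF4 at -2.39 (exact permutation p = 0.0824, n = 7 and 8), and so larger than that at 1 h.

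ALB was called at 3 points by the same test. At 30 min the TM livers had -0.27, -0.95, -0.53, -0.48, -1.61, -0.25 and -0.46, all below 0, against a lowest, median and highest of -0.83, 0.31 and 0.62 in control livers. TM livers lay 0.68 lower on average (-0.65 ± 0.48, n = 7, and 0.03 ± 0.56, n = 8; exact permutation p = 0.0270), at a point where 7.69% of genes were called. The TM liver without a deposited ratio, replicate 6, came to 0.47 from its Ct, above the other TM livers, and with it the difference was -0.54 (exact permutation p = 0.0819). At this point the Ct of STAB1, a reference gene, was 19.4 in TM and 20.6 in control livers (exact permutation p = 0.00202), and the geometric mean over the reference genes 18.1 and 18.7 (p = 0.0617). The part of this in the ALB difference was not tested. On the deposited ratios, which leave out replicate 6, the difference was -0.56 with livers centred on the 48 genes they shared (exact permutation p = 0.0109). With gene-centred panel means it was -0.63 (exact permutation p = 0.0141), and without luciferase among the reference genes -0.79 (p = 0.0233). Without luciferase and with replicate 6 it was -0.66 and not called (exact permutation p = 0.0558).

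At 7 h ALB had a lowest, median and highest of -1.26, -0.12 and 0.49 in TM livers, against -0.10, 0.42 and 0.66 in control livers. TM livers were 0.66 lower (-0.26 ± 0.64, n = 8, and 0.40 ± 0.25, n = 7; exact permutation p = 0.0190), beside 14.7% of all genes called, each of the 11 lower in TM. The median over the 75 genes tested was -0.29. The reference genes came up at a geometric mean of 17.9 cycles in TM and 19.1 in control livers (exact permutation p = 0.00544), and luciferase Ct was 21.3 and 24.0 (p = 0.0247). With each liver centred on the 8 genes that all livers of this point shared, the ALB difference was -0.64 (exact permutation p = 0.0664). With each liver centred on its panel mean, taken over all its genes after centring each gene, it was -0.43 (exact permutation p = 0.149). On the same livers without luciferase among the reference genes it was -0.47 (exact permutation p = 0.154). Control replicate 6, the liver without a ratio, had a luciferase Ct of 31.4, and with its ALB of 2.68 from Ct the difference was -0.95 (exact permutation p = 0.00855).

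At E16 ALB was -0.42, 0.59 and 1.70 in the lowest, median and highest TM liver, against -0.41, -1.31, -0.02 and -12.56 in the 4 control livers with a ratio. The difference of 4.15 rested largely on the last liver (exact permutation p = 0.0101, n = 8 and 4). Without it TM livers averaged 0.57 ± 0.68 and the 3 remaining control livers -0.58 ± 0.66, a difference of 1.15 (exact permutation p = 0.0485). That p is the share of splits with at least as large a difference in either direction, and as 2 times the smaller tail it was 0.0606, below the threshold in the first form only. The control liver with a Ct but no ratio, replicate 3, came to 1.13, and with it the difference was 0.73 (exact permutation p = 0.164, n = 8 and 4). With all deposited ratios and gene-centred panel means the difference was 3.19 (exact permutation p = 0.0424), control replicate 7 included. At this point 17.3% of genes were called, all 14 of them higher in TM, and the median difference over 81 genes was 0.53; without control replicate 7, 16.5% were called.

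At E20 the result for ALB turned with a single liver. With TM replicate 1 the difference was -1.39 (exact permutation p = 0.996, n = 8 and 7). Without it TM livers lay between 0.83 and 1.49, median 1.14, against 0.38 to 1.17, median 0.77, in control livers, and TM was 0.38 higher (exact permutation p = 0.0163, n = 7 each), beside 14.0% of genes called. Control replicate 6, with a Ct and no ratio, came to 1.69, above all TM livers, and with it the difference was 0.26 (exact permutation p = 0.164, n = 7 and 8). From 1 to 5 h the differences of ALB ran from -0.48 to 0.51, none called (exact permutation p of 0.150 to 0.432). The difference at 4 h was called when livers were centred on the 40 genes they shared (-0.51, exact permutation p = 0.0409), and not with gene-centred panel means (-0.45, p = 0.122). At E12, E24, E28 and E30 the differences of ALB were -0.08, -0.01, -0.16 and -0.18, none called (exact permutation p of 0.378 to 0.960).

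CYP2C was called at 2 points. At 2 h the 7 TM livers lay close together, at 0.83, 0.74, 0.55, 0.57, 0.56, 0.53 and 0.45, while the control livers had a lowest, median and highest of -1.92, -0.47 and 0.90. The groups overlapped, with 3 control livers between 0.70 and 0.90. TM was 0.85 higher (0.61 ± 0.13, n = 7, and -0.24 ± 0.96, n = 8; exact permutation p = 0.0291) where 6.49% of genes were called, CYP2C being the only 1 of 77 called higher. The SD of 0.13 was the smallest that CYP2C had in any group of the first trial, where its group SDs ran up to 1.73. The TM liver without a ratio, replicate 3, had no luciferase Ct and came to -0.21 on its 3 other reference genes. With it the difference was 0.75 (exact permutation p = 0.0612) and the SD of the TM livers 0.31. Without luciferase among the reference genes of any liver, and with replicate 3, it was 0.91 (exact permutation p = 0.0246, n = 8 each). On the deposited ratios it was 0.84 with livers centred on the 44 genes they shared (exact permutation p = 0.0124), and 0.81 with gene-centred panel means (p = 0.0274).

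At E12, before the warming, CYP2C had a lowest, median and highest of -1.12, -0.46 and 0.79 in eggs assigned to TM, against -2.56, -1.48 and 0.16 in control eggs. The difference of 0.92 (-0.30 ± 0.66 and -1.22 ± 0.92, SD, n = 8 each) had an exact permutation p of 0.0385, beside 7.41% of genes called. Luciferase Ct at E12 ran from 20.0 to 28.9 in TM and from 20.4 to 23.9 in control livers. The called difference after the rise began, 0.85 at 2 h, was in the first trial, on other eggs and another set of reference genes. The E12 livers are therefore no baseline for it. With each liver centred on the 35 genes that all livers of E12 shared, the E12 difference was 0.62 (exact permutation p = 0.139), with each centred on its gene-centred panel mean 0.74 (p = 0.0796), and without luciferase among the reference genes 0.61 (p = 0.197). At the other 6 times of E13 the differences of CYP2C ran from -0.71 to 0.53, none called (exact permutation p of 0.136 to 0.767). From E16 to E30 they ran from -0.48 to 0.36, none called (exact permutation p of 0.413 to 0.918).

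No difference of ALB, HNF4 or CYP2C passed limma's adjusted p at any of the 13 points, the smallest being 0.228 for ALB at E16. Over the whole panel that test called 1 gene of 80 at E20, or 1.25%, and none at the other 12 points. The 2 tests differ in that the first carries no correction for the number of genes.

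**Figure D3:**
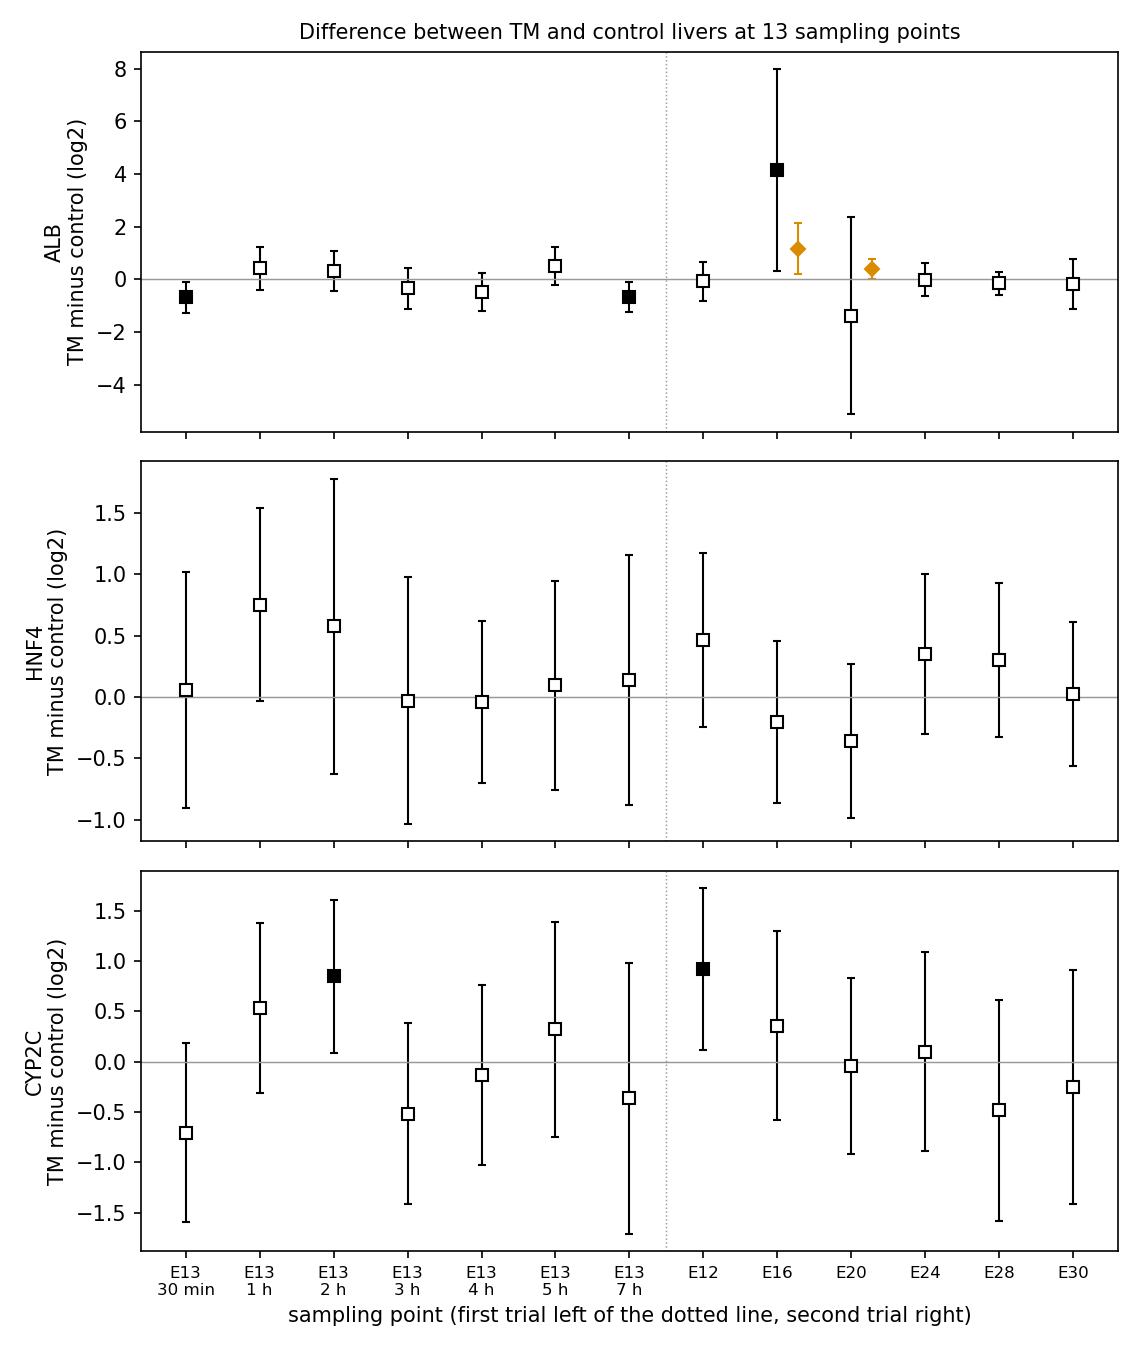
Difference between TM and control livers in mean log2 relative expression (vertical axis, TM minus control) of ALB, HNF4 and CYP2C at the 13 sampling points (horizontal axis); bars are 95% limma intervals and filled squares mark an exact permutation p below 0.05. Orange diamonds give ALB without the 2 livers that stood apart, 1.15 at E16 and 0.38 at E20; the vertical scales differ between panels.

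Within E13, sampling times from the same incubators were also set side by side. CYP2C in TM livers was higher at 2 h than at 30 min, with values from 0.45 to 0.83 at 2 h and from -1.52 to -0.51 at 30 min that did not overlap. The step was 1.64 (0.63 to 2.65, n = 7 each, limma adjusted p = 0.0460), beside 7.14% of genes called. In control livers the same step was 0.08 (-0.86 to 1.03, limma adjusted p = 0.987). The difference between the 2 steps, 1.55 (0.17 to 2.94), did not pass (limma adjusted p = 0.324), where 1.19% of genes did. The TM step rests on ratios that leave out the CYP2C of TM replicate 6 at 30 min, which came to 1.48 from its Ct, and of replicate 3 at 2 h; with both it was not called. ALB took a like course in TM livers, 0.17 ± 0.48 at 2 h (n = 8) and -0.65 ± 0.48 at 30 min (n = 7), without passing (step 0.82, limma adjusted p = 0.212). No other step of these genes within E13 passed in either group, where the share of all genes called was 4.76% for 4 h over 2 h in TM livers, 10.7% for 7 h over 4 h and 2.38% for 5 h over 3 h in control livers, and 0 otherwise.

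**Figure D4:**
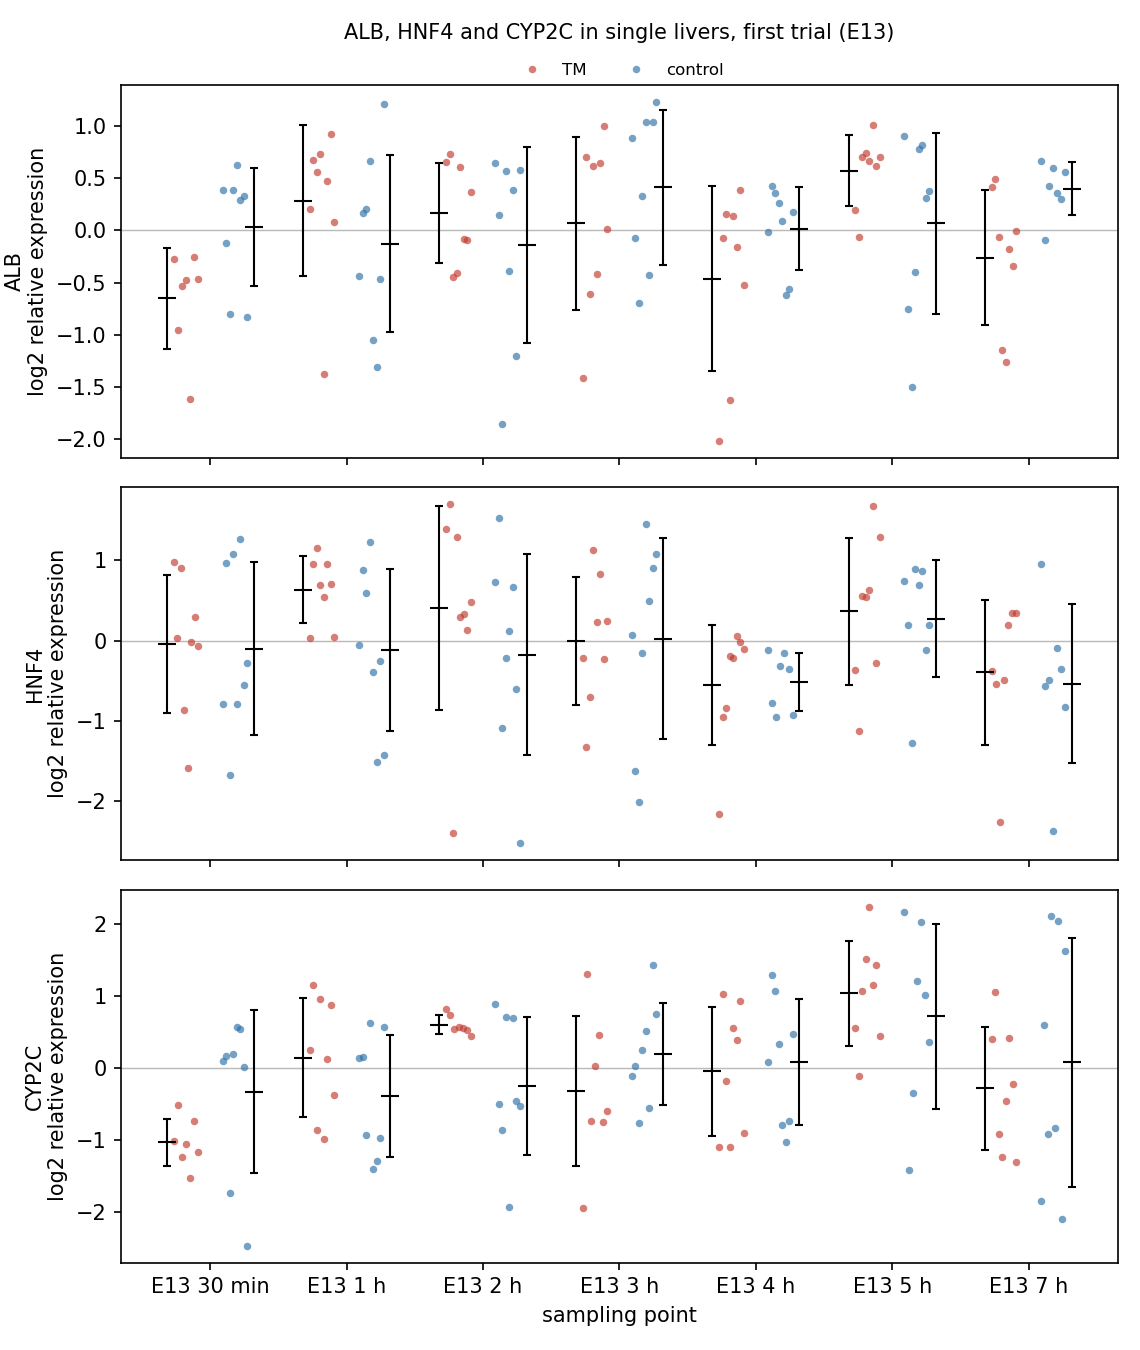
Log2 relative expression (vertical axis) of ALB, HNF4 and CYP2C in single livers of the first trial, by time after the temperature rise on E13 (horizontal axis); TM livers in red, control livers in blue, black bars mean ± SD. ALB in TM livers lies below 0 at 30 min, and the 7 TM livers of CYP2C at 2 h lie between 0.45 and 0.83.

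A list of 6 other hepatocyte-enriched genes of the panel was read beside them: GLUT2 (the liver glucose transporter), DIO1 (a deiodinase acting on thyroid hormone), PPARA and ChREBP (transcription factors of fatty acid oxidation and of glucose-driven lipogenesis), APOB (the structural protein of secreted lipoproteins) and LIPC (hepatic lipase). From E28 to E30, 2 of the 6 fell and none rose in either group, at a median of -0.19 in TM and -0.17 in control livers, against -0.19 and 0.02 over all genes, of which 32.9% and 27.1% were called. LIPC fell by 1.82 in TM livers and by 1.80 in control livers (limma adjusted p = 1.28e-09 and 2.10e-08), with no overlap between E30 and E28. APOB fell by 0.79 in TM and by 1.09 in control livers (limma adjusted p = 0.00218 and 4.73e-05). From E12 to E30, 2 of the 6 rose and 3 fell in TM livers, and 2 rose and 2 fell in control livers, where 58.8% and 52.9% of all genes were called. ChREBP rose by 3.51 in TM and 2.91 in control livers (limma adjusted p = 3.70e-09 and 4.14e-06), and DIO1 by 1.65 and 1.70 (7.57e-05 and 6.67e-05). LIPC fell by 2.58 in TM and by 2.27 in control livers (limma adjusted p = 2.86e-15 and 5.69e-13), APOB fell by 0.82 and by 0.85 (0.00141 and 0.00086), and PPARA fell by 0.58 in TM livers (0.0276).

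Between TM and control livers, 1 member of the list was called higher at 5 h (APOB, 0.67, exact permutation p = 0.0432) and 1 at E16 (PPARA, 0.74, p = 0.0404). Over all genes 14.3% and 17.3% were called at these points. Lower in TM were 2 at 7 h (DIO1, -1.17, exact permutation p = 0.0269, and PPARA, -0.57, p = 0.0342) and 1 at E28 (APOB, -0.31, p = 0.0435). There 14.7% and 9.76% of all genes were called, at 7 h all of them lower in TM. None was called at the other 9 points, where the shares over all genes ran from 5.33% to 13.3%.

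Genes that point to other liver cells or to less differentiated cells were sparse on the panel. The non-parenchymal list held HGF, TGFB1 and IL18, besides STAB1, which served as a reference gene, and the isoform list GLUT1, GLUT3, HK1 and HK2. From E28 to E30 none of these 7 passed in either group, beside 32.9% of all genes in TM and 27.1% in control livers. The median change was 0.94 in TM and 0.23 in control livers for the non-parenchymal list, and -0.51 and -0.33 for the isoform list. Over all genes it was -0.19 and 0.02. From E12 to E30, 1 of the 3 non-parenchymal genes fell in TM livers and all 3 in control livers, beside 36 and 28 of all 85 genes that fell. HGF changed by -2.93 in TM livers (limma adjusted p = 7.49e-06), and HGF, TGFB1 and IL18 by -2.99, -2.29 and -1.56 in control livers (2.27e-06, 0.00703 and 0.0246). Of the isoform list, GLUT1 alone passed in either group, at -1.40 in TM and -1.95 in control livers (limma adjusted p = 0.0138 and 0.000335). At E20 HGF and IL18 were called higher in TM (0.96 and 1.93, exact permutation p = 0.0109 and 0.0117), the point where ALB was higher in TM without replicate 1. At E30 IL18 was 1.58 higher (exact permutation p = 0.0247). Of all genes, 10.0% were called at E20 and 9.52% at E30. At E13, HK2 was lower in TM at 1 h (-1.71, exact permutation p = 0.0455) and GLUT1 at 2 h (-1.25, p = 0.0381), and TGFB1 was higher at 5 h (2.60, p = 0.0193). The shares over all genes at these times were 10.5%, 6.49% and 14.3%. Their part in the results for ALB and CYP2C was not tested, and in whole livers fewer hepatocytes and less RNA per hepatocyte cannot be told apart.

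From embryo to embryo ALB and CYP2C tended to vary together, with a positive Pearson's r in 22 of 25 groups. Over the deviations from group means, and without the 2 livers, Pearson's r of ALB with CYP2C was 0.62 in the first trial (107 livers) and 0.57 in the second (88 livers). ALB with HNF4 gave 0.36 and 0.48 (108 and 86 livers), and CYP2C with HNF4 0.11 and 0.25 (105 and 89 livers). All of these share the reference genes of the liver, so that a shift in these moves all genes of a liver together. With each liver centred on its gene-centred panel mean the r of ALB with CYP2C was 0.54 and 0.44, of ALB with HNF4 0.11 and 0.27, and of CYP2C with HNF4 -0.02 and 0.01.

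Within single groups of 6 to 8 livers, r was positive in 22 of 25 groups for ALB with CYP2C, in 21 of 25 for ALB with HNF4 and in 17 of 25 for CYP2C with HNF4. The shared reference genes enter each of these r, and no share over other gene pairs of the panel is given. The counts therefore cannot be read as particular to these genes. For ALB with CYP2C the negative r were at E20 (-0.21 in TM and -0.13 in control livers) and E24 (-0.36 in TM livers). Control livers of E24 gave 0.27, and those of 7 h 0.05 (permutation p = 0.925, n = 7). No test compared r between stages. Of these 75 correlations 4 passed adjustment by exact permutation of Pearson's r and none by Spearman's rho. Those for ALB with CYP2C were control livers at 5 h (r = 0.96, permutation p = 0.000794, adjusted 0.0298; rho = 0.96, p = 0.00278, adjusted 0.104; n = 7) and at E12 (r = 0.91, p = 0.00119, adjusted 0.0298; rho = 0.83, p = 0.0154, adjusted 0.114; n = 8). Without the 2 livers farthest from the median of ALB, r was 0.84 and 0.83. Those for ALB with HNF4 were TM livers at 5 h (r = 0.90, permutation p = 0.00104, adjusted 0.0298, rho = 0.79, p = 0.0279, adjusted 0.175, n = 8) and control livers at E28 (r = 0.89, p = 0.00248, adjusted 0.0465, rho = 0.93, p = 0.00223, adjusted 0.104, n = 8). Without the 2 farthest livers r was 0.79 and 0.77, and with panel centring 0.27 and 0.85. At hatch, where the spread of both genes was wide, r was 0.78 in TM livers (permutation p = 0.0281, adjusted 0.124; rho = 0.76, p = 0.0368, adjusted 0.184) and 0.91 in control livers (p = 0.00568, adjusted 0.0653; rho = 0.71, p = 0.0576, adjusted 0.240; n = 8 each). There r was 0.68 and 0.45 without the 2 farthest livers, so that in control livers it rests in good part on them, and 0.72 and 0.85 with panel centring.

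The genes whose 12 group means of the second trial followed CYP2C most closely, with all livers, were ME (r = 0.90), ELOVL6 (0.87) and FAS (0.85), enzymes of fatty acid synthesis and elongation and of the NADPH supply for it. Without the 2 livers LDLR4 (0.91) came first. Over the 14 group means of the first trial they were ALB (0.73), GLUT2 (0.73) and ACLY (0.72). For ALB they were ENO1 (0.74), NCOR (0.72) and INSR (0.67) in the second trial, and NCOR (0.91), LIPC (0.83) and GAPDH (0.80) without the 2 livers. In the first trial they were ACAT1 (0.82), APOB (0.81) and CPT1A (0.78). For HNF4 they were PLIN2 (0.60), LDLR4 (0.59) and ACLY (0.59) in the second trial, and ACLY (0.59), ELP3 (0.58) and LDLR4 (0.57) without the 2 livers. In the first trial they were HSPA5/HSP70 (0.79), ACC (0.78) and ACAT1 (0.65). Neither ALB nor HNF4 was among the 3 closest to CYP2C in the second trial, where the r of ALB with CYP2C over group means was -0.35, and -0.68 without the 2 livers. Over the first trial's group means it was 0.73. The genes ranked were 85 in the second trial and 84 in the first, and the points share their reference genes. In the second trial mean CYP2C was 1.82 and 2.07 in the 2 groups of E30, and at most 0.27 in the others. Those 2 groups therefore weigh heavily in each r with CYP2C there, and r without them is not given.

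Over the livers of a group HNF4 varied by a median SD of 0.91 in the first trial and 0.48 in the second, ALB by 0.68 and 0.63, and CYP2C by 0.86 and 0.92, without the 2 livers. The median over all genes was 0.70 and 0.63. The SDs are those of the deposited ratios, which leave out the values known only by their Ct. In the second trial CYP2C was thus more variable between embryos than 66 of 85 genes, and HNF4 more than 18.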

How the data were processed

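Total RNA from a piece of each frozen liver was reverse-transcribed with a fixed amount of luciferase RNA and measured on Fluidigm chips, with preamplification. The authors deposited relative expression as a ratio, 2 to the power of minus the double difference of Ct (reference genes ACTB, luciferase, STAB1 and USP9X in the first trial, HPRT1 in place of ACTB in the second), and in a second deposited table the Ct values in cycles. Log2 of the deposited ratio was analysed. It was recomputed from Ct to within 1.5e-06 with the geometric mean of the reference Ct. The number of genes with a ratio ran from 18 to 86 per liver (median 81), and 605 ratios were blank where a Ct existed. The reason was not given in the sources used here. For ALB, HNF4 and CYP2C, these blanks were extreme values of their groups, as given above. Values of 1 column that named no sample were not used, and for 1 control liver of 30 min ratios but no Ct were used. Precision rests on the number of livers, since PCR gives no counts.

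At each point TM livers were set against control livers by permuting the group labels over every split (exact, two-sided, on the mean difference, with at least 6 livers per group, or 4 at E16), and by limma 3.58.1 in R 4.3.3, with Benjamini-Hochberg adjustment over the genes of the point. Steps between points and differences between TM effects were tested in 1 limma fit per trial over genes with at least 3 livers in each group (84 and 85 genes). The whole panel of 86 target genes was tested, not the 81 of the study, whose list was not used here. The study's notes name R 3.6.2. Alternatives were all deposited Ct values, reference genes without luciferase (on all Ct, and on the livers with a deposited ratio), centring on the genes shared by all livers of a point or on gene-centred panel means, other tests, the replicate number as a block, and leaving livers out. Centring a whole trial on genes present in every liver was not possible, and gene-centred panel means replaced it, a choice made after seeing the data, as were the differences in step at E16 over E12 and E30 over E28, leaving out 5 livers of E13 and the measure of CYP2C over ALB. The genes described, the lists and the tests were chosen with earlier results of these data known. Beside the 3 genes, 3 genes per trial are named for the highest Pearson r of group means, and listed genes by their calls. The limma fits were tested on simulated data, and the permutation test, whose p is the share of splits with at least as large an absolute difference, was checked against scipy 1.17.1. Taking 2 times the smaller tail instead, leaving out luciferase on the deposited ratios alone and gene-centred panel means at single points were added after seeing the data. No primer or gene sequence is shown.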

Additional observations from a re-analysis of the deposited data

Results flagged for a closer look

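In 9 of 78 groups of 4 to 8 livers, a single liver lay far from the others by Dixon's criterion, which chance alone passes in about 1 group in 20. For ALB these were control replicate 7 of E16 (-12.56, against -1.31 to -0.02 in the others), TM replicate 1 of E20 (-12.98, against 0.83 to 1.49) and TM replicate 5 at 1 h (-1.37, against 0.08 to 0.92). For HNF4 they were TM replicate 3 at 2 h (-2.39), TM replicate 1 at 4 h (-2.15), control replicate 3 at 5 h (-1.28), TM replicate 3 at 7 h (-2.26) and control replicate 6 at E12 (-1.79). For CYP2C it was control replicate 8 at E20 (-1.77). All 9 were low. The criterion was run on the deposited ratios, which leave out livers with a Ct that came out above their group. Such high livers could not be flagged, so the direction of the 9 is no result about these genes. The chance rate given is for groups with no value left out. The HNF4 livers at 2 h, 4 h and 5 h were among the 5 livers of E13 that lacked a reference gene or had a luciferase Ct above 30.

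The TM effect on ALB at E20 differed from that at E16 by -5.53 (limma adjusted p = 0.0298, beside 5.88% of all genes called). Without the 2 livers the difference was -0.77 (limma adjusted p = 0.617), and it did not pass.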

How the results depend on the processing

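The side of the threshold (for counts, a value within 1.5 times) held in 1194 of 1323 recomputed values. A turn of direction was not counted as a change where neither value was called. Examples with all deposited Ct are ALB at E12 (-0.08, then 0.15) and HNF4 at E30 (0.02, then -0.15). Of the differences between TM and control livers called by exact permutation, all lost their call with limma's adjusted p and with adjusted permutation p: ALB at 30 min (-0.68, adjusted 0.536 and 0.527), at 7 h (-0.66, 0.254 and 0.233) and at E16 (4.15, 0.228 and 0.136), and CYP2C at 2 h (0.85, 0.395 and 0.561) and E12 (0.92, 0.431 and 0.606). The methods' test did not call CYP2C at 2 h (0.85, p = 0.232 by that test, not by permutation) or E12 (0.92, 0.072). With all deposited Ct, ALB at 30 min was -0.54 and CYP2C at 2 h 0.75, neither called. Without luciferase among the reference genes and with all Ct, 2 changes at once, ALB at 30 min (-0.66), 7 h (-0.57) and E16 (0.68, where control replicate 7 has no value) and CYP2C at E12 (0.61) were not called. On the deposited ratios alone, a setting added after seeing the data, leaving out luciferase ended the calls of ALB at 7 h (-0.47) and CYP2C at E12 (0.61), while ALB was called at 30 min (-0.79), E16 (1.02) and E20 (0.41, without TM replicate 1, which has no value). Centred on the genes shared by all livers of a point, 8 to 51 genes, ALB at 7 h (-0.64) and CYP2C at E12 (0.62) were not called, and ALB at 4 h (-0.51) and HNF4 at E20 (-0.58) were. With gene-centred panel means, added after seeing the data, ALB at 7 h (-0.43) and CYP2C at E12 (0.74) were not called. With all livers kept, no other call changed. The ALB call at E16 so centred (3.19, exact permutation p = 0.0424) still included control replicate 7. Without the 2 livers, panel centring was run for steps and differences between TM effects, not at single points. The TM effect on ALB at E16 then differed from that at E12 by 0.67, against 1.24 uncentred (limma adjusted p = 0.627 and 0.364). That at E20 differed from that at E16 by -0.35, against -0.77 (limma adjusted p = 0.791 and 0.617). Same-numbered livers did not deviate together (with 4 pairs at E16, 7 at E20 and 8 elsewhere, 1 to 4 pairs of a point correlated above 0.1, 2 of them at E16), so the numbers name livers only. With the replicate block ALB at 30 min was -0.65, at 7 h -0.67 and at E16 3.92, and CYP2C at 2 h 0.76, none called by limma's unadjusted p. ALB at E16 was 1.15 without control replicate 7 and, as 2 times the smaller tail, not called (exact permutation p = 0.0606, a form of the p added after seeing the data that ended no other call). It ran between 1.15 and 5.33 when single livers were left out, and ALB at E20 turned to 0.38 without TM replicate 1 (exact permutation p = 0.0163 in both forms). The number of called points of ALB in the first trial, 2, was 1 with all Ct, without luciferase on the deposited ratios and with gene-centred panel means, and 0 without luciferase on all Ct, with limma's adjusted p, with adjusted permutation p and with the block. In the second trial it was 1, 0 under the last 4 of these, and 2 without luciferase on the deposited ratios. For CYP2C it was 1 in each trial, and 0 with all Ct, adjusted tests, the methods' test and the block in the first, and 0 without luciferase, with either panel centring, adjusted tests and the methods' test in the second. HNF4 was called at 0 points, but at 1 of the first trial with the block (1 h) and 1 of the second with centring on shared genes (E20).

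The fall of ALB from E28 to E30 passed in TM livers without luciferase (-1.52, the 2 livers then having no value), without the 2 livers (-1.51), without them and panel-centred (-1.81) and by exact permutation (-1.51), and in control livers likewise (-1.46, -1.49, -1.80 and -1.49). The step of HNF4 in TM livers (0.56) passed by exact permutation (p = 0.0361). The step of ALB in TM livers from E16 to E20, -1.21 with all livers, was 0.87 without the 2 livers and panel-centred (limma adjusted p = 0.0371). Steps called for ALB in TM livers of the first trial were 0, and 1 with panel centring or permutation, and in control livers 0, and 1 with permutation. In the second trial they were 0 in TM livers, 1 without luciferase or the 2 livers, 2 by permutation and 3 without the 2 livers and panel-centred, and 2 in control livers, 0 with all Ct and 1 without luciferase on all Ct, with panel centring or without the 2 livers. For HNF4 in TM livers of the second trial the count was 1 (E16 over E12), 0 without luciferase and 2 by permutation. For CYP2C in TM livers it was 1 in each trial, 2 by permutation in each, and 0 in the first with all Ct, with or without luciferase. The causes were not tested. Centring a trial on genes found in every liver was not run. The number of livers, 3 to 8 per group, limits the precision, and values from a liver with 1 reference gene rest on the added RNA alone.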
